A study of Pyrus pyrifolia with 6 samples.

Results

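The regions described here are 711 stretches of the pear genome in which only CHG methylation was called as different, and in which it was lower in the skin of bagged fruit. They were chosen by a rule on the table that the authors deposited, which lists 53954 differentially methylated regions. A region had to lie on one of the 17 chromosomes, be listed in CHG context with a lower mean level in bagged than in unbagged skin, and share no base pair with any region listed in CG or CHH context. The table holds 1787 CHG regions on chromosomes, of which 889 were lower in bagged skin (49.7%) and 711 met the whole rule (39.8%). Of the 178 lower CHG regions left out, 118 shared sequence with a CG region only, 44 with a CHH region only and 16 with both. The direction and the levels of the 711 regions are therefore what chose them, and they are given as a description without a test.

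The study measured DNA methylation by whole-genome bisulfite sequencing, in which unmethylated cytosines are read as thymine, in fruit skin of Pyrus pyrifolia 'Cuiguan', a pear whose skin turns partly russet (brown and corky). The study set 3 samples of skin from uncovered fruit (unbagged) against 3 samples from fruit covered with paper bags (bagged), to relate methylation to russeting. All fruit came from 1 cultivar on trees aged 7 years, and the bagged fruit received single-layer bags 20 days and double-layer bags 40 days after full bloom. Fruit of both groups was harvested at 115 days. Every level below is the authors' mean level for a group of 3 samples. Replicate error therefore cannot be given for any value, and its read depth is unknown.

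As background, plant cytosines are methylated in 3 sequence contexts, CG, CHG and CHH (H stands for any base but G), each maintained by its own enzymes. In Arabidopsis, CHG methylation is maintained by the chromomethylase CMT3, which is drawn to chromatin by a methyl mark on histone H3. The histone methyltransferase KYP is in turn drawn to methylated DNA, so that the marks maintain each other, mostly over transposons and other repeats. CG methylation is copied at replication by MET1, and CHH methylation is set anew by DRM2, guided by small RNAs, and by CMT2. CHG methylation is removed by DNA glycosylases such as ROS1, which act on every context. A region listed for CHG alone is one in which the differences of the other contexts, if there were any, were not called.

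The 711 regions were short and held few cytosines. Their median length was 88 bp (quartiles 67 and 118) and together they covered 74.4 kb. They held a median of 9 CHG cytosines (quartiles 6 and 13), and 7414 in all. The fewest cytosines were 4 and the most 47, and 182 regions (25.6%) rested on 4 to 6 cytosines, while 47 (6.61%) had at least 20. The 178 CHG losses that shared sequence with another context were longer, with a median of 115.5 bp and 11 cytosines. The 629 CHG-only gains, which meet the same rule with a higher level in bagged skin, had a median length of 92 bp and 10 cytosines. The density of CHG cytosines was close in the losses and gains, with medians of 10 and 10.5 per 100 bp.

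In unbagged skin the regions had a median CHG methylation of 62.2% (quartiles 45.0 and 77.4), and in bagged skin 32.0% (17.0 and 50.2). The median difference was -24.4 percentage points (quartiles -30.8 and -20.01). A median of 54.0% of the unbagged level was left in bagged skin (quartiles 38.4 and 66.2). Methylation was thus lowered, and in most regions not removed: 308 regions (43.3%) kept less than 50% of their unbagged level, and 92 (12.9%) had a bagged level under 10%. With each region weighted by its number of cytosines, the mean levels were 59.2% unbagged and 34.1% bagged, against unweighted means of 60.1% and 34.2%.

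**Figure D1:**
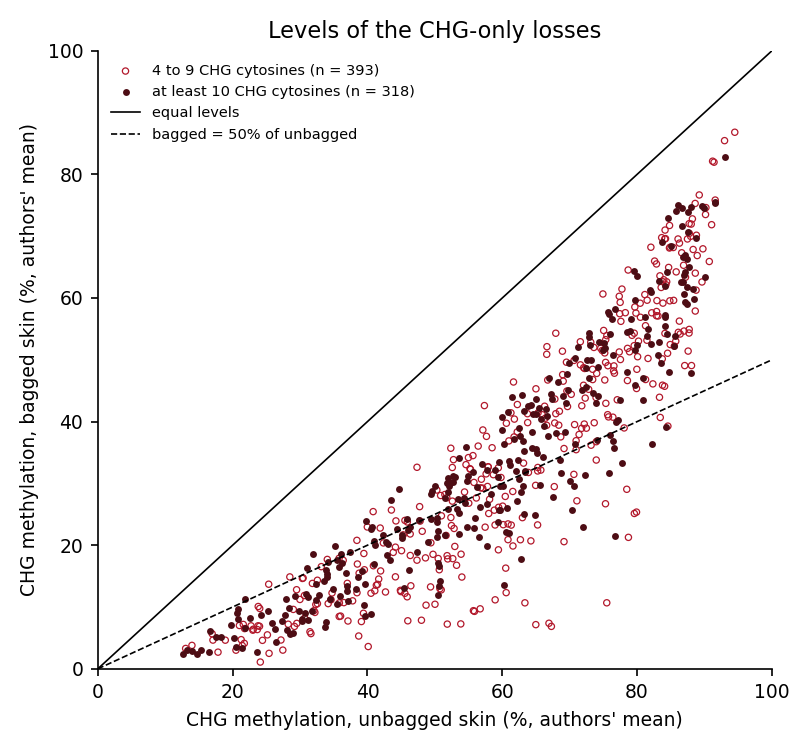
CHG methylation level of each of the 711 regions in bagged skin (y axis, percent) against unbagged skin (x axis, percent), by the authors' group means. All points lie below the line of equal levels, since the rule chose them so, and 308 lie below the dashed line at 50% of the unbagged level; filled points are the 318 regions with at least 10 cytosines.

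The losses started from all but the lowest levels. In unbagged skin 69 regions had 10 to 30% methylation, 143 had 30 to 50%, 232 had 50 to 70% and 267 had 70% or more, and none was under 10%. The median difference was -16.6 points in the lowest of these classes, -23.4 in the next, -27.8 from 50 to 70% and -25.3 at 70% or more. The share of the unbagged level that was left went up through the classes, with medians of 27.2%, 40.1%, 53.1% and 68.7%. Weakly methylated regions thus lost fewer points and ended nearly free of CHG methylation, with a median bagged level of 6.36%, while the most methylated ended at a median of 54.2%. Of the 92 regions under 10% in bagged skin, 61 had started below 30%. A low starting level leaves few points to lose, so the smaller differences in that class are bounded by its level. The smallest loss called in that class was -9.74 points. Its low bagged levels and low share left are therefore bound up with which regions were called. The 711 losses and the 629 gains mirrored each other in level: the gains had a median of 30.7% in unbagged and 58.3% in bagged skin.

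**Figure D2:**
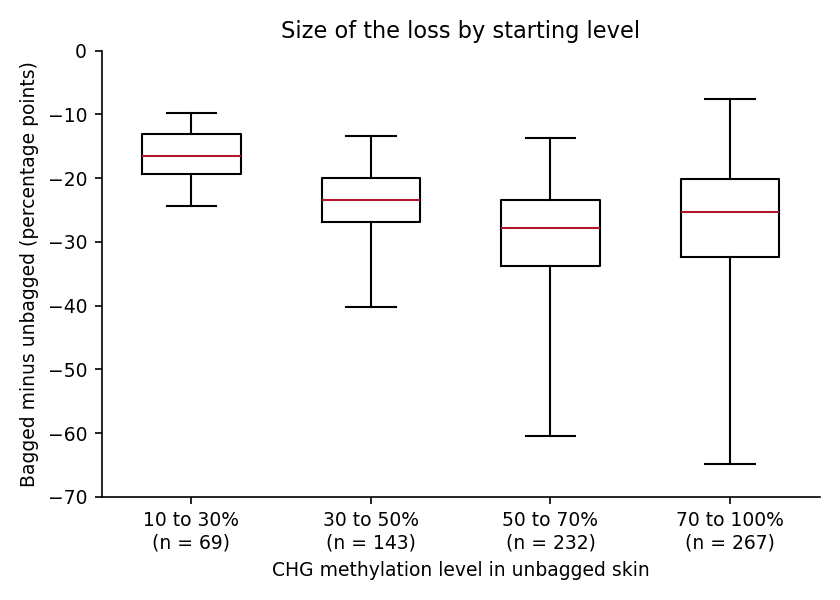
Difference in CHG methylation, bagged minus unbagged (y axis, percentage points), of the 711 regions in 4 classes of unbagged level (x axis). Lines in the boxes are medians, boxes are quartiles and whiskers reach the lowest and highest region; the medians run from -16.6 points in the class from 10 to 30% to -27.8 points from 50 to 70%.

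Losses of at least 30 points were found in 198 of the regions (27.8%, exact binomial interval 24.6 to 31.3), against 13.8% of all CHG regions on chromosomes that were lower by that much. The regions were chosen for being lower, so nothing is read from that gap. A loss of at least 40 points was found in 42 regions and of at least 50 points in 9. Large losses went with few cytosines: 37.4% of the regions with 4 to 6 cytosines were lower by at least 30 points, against 25.6% with 7 to 9, 28.3% with 10 to 14, 17.5% with 15 to 19 and 17.0% with 20 or more. Only 1 of the 9 losses past 50 points had as many as 10 cytosines. A mean over few cytosines varies more, and how far this sets the size of the largest losses was not tested.

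At the other end, the rule's limit is a difference of 0, and no region lay close to it. Only regions called as different are listed, so nothing is read from that absence. The smallest losses were -7.51 points (chromosome 4, 23021378 to 23021434), -7.67 points (chromosome 4, 3292555 to 3292625) and -9.06 points (chromosome 12, 10765571 to 10765623). All of them were highly methylated, at 91.2 to 94.5% in unbagged skin. The smallest CHG-only gains, just outside the rule, were 5.20, 5.63 and 5.99 points, at unbagged levels of 2.29%, 6.19% and 6.94%. The smallest called differences thus lay near full methylation for losses and near none for gains.

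Among the 318 regions with at least 10 cytosines, the largest loss lay on chromosome 10 from 10145806 to 10145921. Its 11 cytosines had 76.8% in unbagged and 21.5% in bagged skin, and the nearest CHH region lay 2984 bp away. The second lay on chromosome 13 from 865616 to 865797, with 71.9% unbagged and 22.9% bagged. This one was not alone: 710 bp before it, a CG region had 84.7% unbagged and 48.6% bagged, and a CHG region sharing sequence with that CG region had 75.2% and 45.4%. The third, on chromosome 15 from 37743366 to 37743480, had 60.3% unbagged and 13.6% bagged, and a CHH region 598 bp away was also lower, at 21.6% unbagged and 5.42% bagged.

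Other large losses stood beside CHH gains. On chromosome 6 from 5227197 to 5227283, CHG methylation was 70.3% in unbagged and 25.6% in bagged skin. The CHH region that ended 74 bp before it had 38.0% unbagged and 77.0% bagged. Contexts thus moved in opposite directions, by -44.7 and 39.0 points, at neighbouring positions. On chromosome 14 from 21437554 to 21437631, the CHG levels were 75.8% and 31.6%, and 420 bp away 66 CHH cytosines had 20.2% unbagged and 44.4% bagged. Still others stood apart, as on chromosome 5 from 18083515 to 18083666, where 22 cytosines had 82.2% unbagged and 36.4% bagged and the nearest CHH region lay 3734 bp away.

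Without a limit on cytosines, the largest loss was -64.8 points on chromosome 10 from 5020695 to 5020775, with 4 cytosines at 75.5% unbagged and 10.7% bagged. It was followed by chromosome 13 from 18582806 to 18582877, with 7 cytosines at 67.3% and 6.87%. Every chromosome had a region with a loss of at least 38.1 points, the smallest of these leading losses being that on chromosome 8 from 14486534 to 14486596. In 8 regions a level of at least 50% in unbagged skin came with one under 10% in bagged skin, which is nearly a full loss, and all of them had at most 8 cytosines. With at least 10 cytosines and 30% unbagged, the lowest bagged level was 6.70%, against 33.7% unbagged, on chromosome 12 from 20480755 to 20480886.

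The regions with the most cytosines rest on more sites, and their losses were 23.3, 30.1 and 11.6 points. On chromosome 5 from 427487 to 428162, 47 cytosines in 676 bp had 74.9% in unbagged and 51.6% in bagged skin. On chromosome 11 from 19914812 to 19915151, 44 cytosines had 59.7% and 29.6%, and a CG region 644 bp away went the same way, from 87.1% unbagged to 50.1% bagged. The third, with 42 cytosines on chromosome 15 from 44010269 to 44010454, was weakly methylated, at 20.6% and 9.03%. Regions with more cytosines were longer, with a median length of 66.5 bp at 4 to 6 cytosines and 189 bp at 20 or more. The longest region was an exception, with 5 cytosines in 793 bp on chromosome 2 from 18254925 to 18255717, at 83.8% unbagged and 45.9% bagged.

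How close the CHG losses lay to regions of other contexts was not used by the rule, apart from the exclusion of shared sequence. A CHH region lay within 2 kb of 325 of the 711 losses (45.7%, exact binomial interval 42.0 to 49.5), counted between the nearest ends. For the 629 gains it was 215 (34.2%, 30.5 to 38.0). Among the regions that the rule keeps, the median gap was thus 2395 bp for losses and 3457 bp for gains. The exclusion of shared sequence bears unequally on the 2 sets. Over all CHG regions on chromosomes, 155 CHH regions shared sequence with a CHG gain and 61 with a CHG loss. How much of the contrast comes from that exclusion was not tested. For 995 CG-only losses, chosen in the same way in CG context, the share within 2 kb was 42.4% and the median gap 2739 bp. These differences are described and not tested, and the intervals cover counting error only, since neighbouring regions are not independent. CG regions were far fewer than CHH regions on chromosomes as a whole, at 1958 against 46661. A CG region lay within 2 kb of 54 losses (7.59%), against 6.36% of the gains, and the median gap from a loss was 72989 bp. Whether the losses lay closer to CG regions than their number alone would give was not tested.

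**Figure D3:**
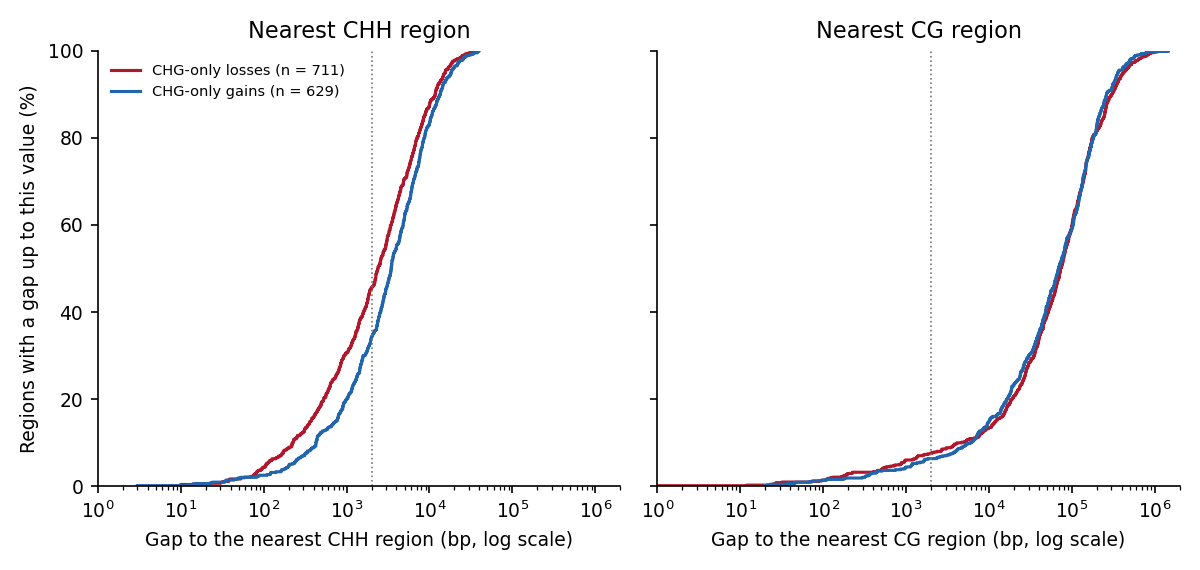
Percent of regions (y axis) whose nearest CHH region (left) or CG region (right) lies within a given gap (x axis, bp, log scale), for the 711 CHG-only losses and the 629 CHG-only gains; the dotted line marks 2 kb. The curve of the losses lies above that of the gains for CHH regions, at 45.7% against 34.2% at 2 kb, and the curves nearly coincide for CG regions. CHG regions that share sequence with a CHH or CG region are left out of both sets, and for CHH regions this removes more contacts from the gains.

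Losses with and without a near CHH region had similar levels. With one within 2 kb, the median was 60.6% unbagged and 31.0% bagged, and without one it was 63.3% and 33.5%. The median differences were -25.9 and -23.6 points, and both groups had a median of 9 cytosines. The gap between these medians is small beside the spread among the regions, whose quartiles were -31.8 and -21.0 points with a near CHH region.

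The CHH regions near the losses were mostly higher in bagged skin, opposite to the CHG change. Within 2 kb lay 450 CHH regions, of which 410 (91.1%, exact binomial interval 88.1 to 93.6) were higher, against 90.3% of all CHH regions on chromosomes. That share is near the background. Around the CHG-only gains, 243 of 277 CHH regions (87.7%, 83.3 to 91.3) were higher. In the closest window, within 100 bp of a loss, all 33 CHH regions were higher, with an exact binomial interval of 89.4 to 100%. Beyond that and up to 500 bp it was 113 of 121, up to 1 kb 100 of 111, and up to 2 kb 164 of 185.

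Shared sequence and mere nearness gave different pictures. Over all 889 CHG losses on chromosomes, 61 CHH regions shared sequence with a loss, and 49 of these (80.3%, 68.2 to 89.4) were lower. Of the 46 CHH regions that lay 1 to 100 bp from a loss without sharing sequence, 6 were lower and 40 higher (87.0%, 73.7 to 95.1). The rule leaves out every CHG loss with a CHH region on it. Of the 711 losses, 284 had only higher CHH regions within 2 kb, 22 only lower ones, 19 both, and 386 none. The 629 CHG-only gains had 182, 26, 7 and 414 in the same order. Since 90.3% of all CHH regions on chromosomes were higher, the excess of higher neighbours is not particular to the losses.

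The near CHH gains were similar in level to other CHH gains. The 410 higher CHH regions within 2 kb of a loss went from a median of 12.8% unbagged to 26.1% bagged, and all 42128 higher CHH regions from 11.7% to 24.5%. The 243 near the CHG-only gains had 9.23% and 22.5%. Beside most CHG losses with a CHH neighbour, CHH methylation was thus present at a low level in unbagged skin and 12.02 points higher in bagged skin by the median difference.

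The few CG regions near the losses followed the CHG change. Of 55 CG regions within 2 kb of a loss, 46 (83.6%, 71.2 to 92.2) were lower in bagged skin, against 61.6% of all CG regions on chromosomes. Around the CHG-only gains it was the reverse, with 33 of 38 (86.8%, 71.9 to 95.6) higher against a background of 38.4%. All 26 CG regions within 500 bp of a loss were lower, and so were 11 of 16 from there to 1 kb and 9 of 13 from 1 to 2 kb. Because 17 of the 55 shared sequence with a further CHG region, the count was also made without them, a choice made after seeing the data. Then 30 of 38 (78.9%, 62.7 to 90.4) were lower, against 64.0% of all CG regions that share no sequence with a CHG region, a share that the interval includes. Around the gains, the same recount left 22 of 25 (88%, 68.8 to 97.5) higher, against 36.0% of all such CG regions, which lies below the interval. The 26 CG regions within 500 bp of a loss were not recounted in this way. With every loss left out that had a CG or CHH region within 1 kb, 8 CG regions remained within 2 kb. Of these, 3 (37.5%) were higher, against the background of 38.4%. That setting keeps only CG regions more than 1 kb from the remaining losses, so it cannot speak to closer ones, and 8 regions are few. The 46 lower CG regions were more methylated than their CHG neighbours, with medians of 75.6% unbagged and 46.0% bagged.

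**Figure D4:**
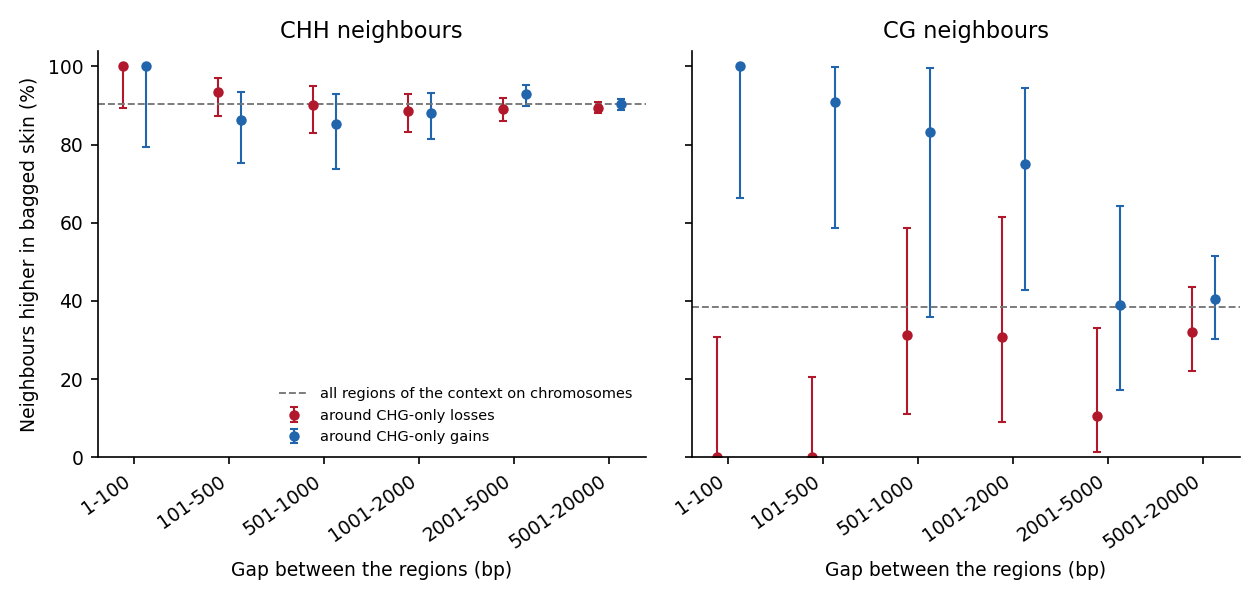
Percent of neighbouring CHH regions (left) and CG regions (right) that were higher in bagged skin (y axis) by the gap to the nearest CHG-only loss or CHG-only gain (x axis, bp). Bars are 95% exact binomial intervals and dashed lines are all chromosome regions of the context, 90.3% for CHH and 38.4% for CG. CHH shares stay near the line, while CG shares within 500 bp are 0% around losses and at least 90.9% around gains. Within 2 kb, 17 of 55 CG regions around losses and 13 of 38 around gains share sequence with another CHG region, and they are counted here.

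Some loci show all contexts side by side. On chromosome 6, CHG losses were listed from 16504029 to 16504197 (55.6% unbagged, 31.9% bagged) and from 16504853 to 16504936 (60.6% and 12.3%). A CG region beginning at the next base, 16504937, had 61.5% unbagged and 19.4% bagged, while the CHH region from 16504950 to 16505162 had 25.6% and 45.8%. CG and CHG methylation were thus lower and CHH methylation higher in neighbouring regions. The CG and CHH regions overlapped, and the CHG loss adjoined them without sharing sequence. A further CHG loss from 16505121 to 16505327 (36.2% and 12.1%), left out by the rule, shared sequence with that CG region. The directions were the same on chromosome 13, where the CHG loss from 11500964 to 11501066 (64.8% and 24.9%) was followed by a CG loss from 11501089 (76.8% and 29.6%), and a CHH gain ended 231 bp before the CHG loss (52.0% and 69.5%). Here too the CG region shared sequence with a further CHG loss, from 11501124 to 11501257 (73.5% and 24.0%).

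On chromosome 15 the CHG loss from 25346254 to 25346306 had 40.1% in unbagged and 3.61% in bagged skin. The CG region 12 bp after it had 43.6% and 5.22%, so that both contexts were nearly free of methylation in bagged skin. That CG region also shared sequence with a further CHG loss, from 25346366 to 25346515 (44.5% and 2.58%). The CHH region 537 bp away was higher, at 48.0% unbagged and 65.3% bagged. The loci named in this and the preceding paragraph are those with the smallest gap between a CHG loss and a CG region, so they show the closest cases and not the usual one: 364 of the 711 losses (51.2%) had neither a CG nor a CHH region within 2 kb.

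Most losses had no other CHG-only loss within 50 kb. Another one lay within 50 kb of 148 of them (20.8%, 17.9 to 24.0), and the corresponding figure for gains was 20.7%. Within 1 kb it was 35 losses (4.92%) and 33 gains (5.25%). Whether these shares exceed those of regions placed at random was not tested. Close pairs mostly shared direction: of the 45 pairs of CHG-only regions within 1 kb, 19 were lower in both, 18 higher in both and 8 opposite. Within 50 kb the pairs were 105, 76 and 131, so that 58.0% shared direction, against 82.2% within 1 kb. Counted as runs with steps of at most 50 kb, 563 losses stood alone, 98 stood in pairs and 50 formed 15 runs of 3 or more.

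The largest run held 6 losses in 66.3 kb on chromosome 4 from 22223288 to 22289622, with differences from -31.7 to -13.6 points. It also held 3 CHH regions, all higher, and 1 CHG-only gain from 22239212 to 22239354, at 44.5% unbagged and 78.4% bagged. The gain lay only 270 bp before a loss from 22239624 to 22239724 (28.0% and 6.33%), so that CHG methylation moved both ways at this place. The tightest run held 4 losses in 2372 bp on chromosome 15 from 30639093 to 30641464. Its levels were 37.0 to 72.8% in unbagged and 13.8 to 45.2% in bagged skin, and no CG, CHH or higher CHG region was listed inside it. Among pairs of successive losses within 1 kb, the one with the largest mean loss lay on chromosome 9 from 3352797 to 3353049, at 84.6% and 71.1% unbagged and 39.3% and 27.2% bagged.

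The losses were spread over all 17 chromosomes. Chromosome 15 had the most, 55, and chromosome 1 the fewest, 29. Measured up to the last region listed on each chromosome, there were 1.46 losses per Mb in all, from 1.18 per Mb on chromosome 11 to 2.06 per Mb on chromosome 9. The losses outnumbered the CHG-only gains on 13 chromosomes, equalled them on chromosome 8 and were fewer on 3. The balance was furthest toward losses on chromosome 1, with 29 against 17, and on chromosome 16, with 38 against 23. On chromosome 11 it was the other way, with 39 against 53. The size of the losses hardly varied, with median differences from -26.7 points on chromosome 12 to -23.5 points on chromosome 14.

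**Figure D5:**
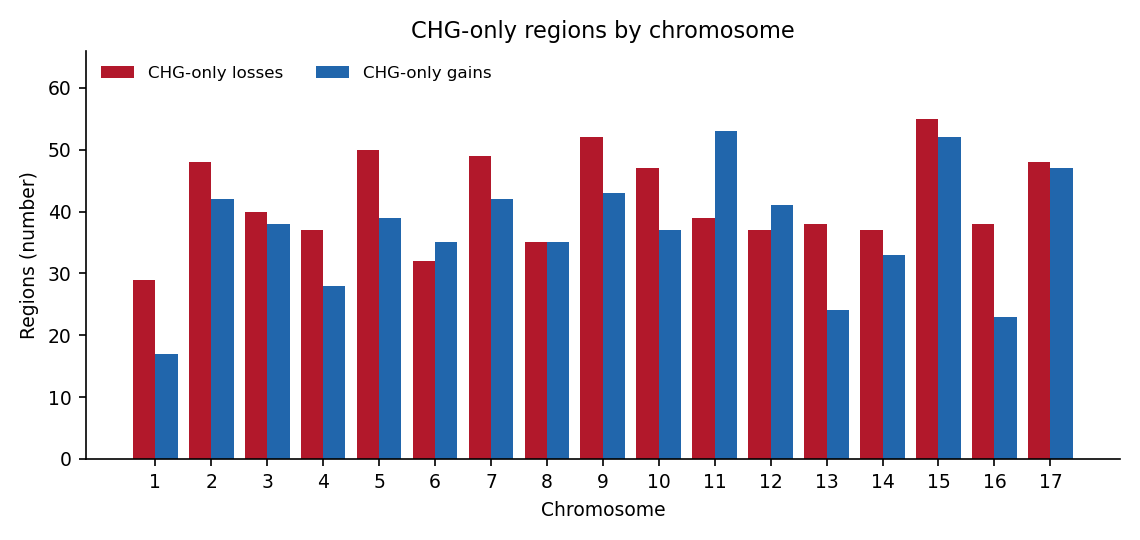
Number of CHG-only losses and CHG-only gains (y axis) on each chromosome (x axis). Losses range from 29 on chromosome 1 to 55 on chromosome 15, and are fewer than gains on chromosomes 6, 11 and 12.

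Along the chromosomes, the listed span was divided into 5 equal parts, of which the last held 106 losses (14.9%), the fewest, and the middle one 167 (23.5%), the most. The CHG-only gains had 20.03% in the last and 24.0% in the middle part. All CHH regions had 18.5% and 22.3%, and all CG regions 22.5% and 18.2%. CHG losses, CHG-only gains and CHH regions were thus all most frequent in the middle. CG regions were fewest there, though by little, with 356 against 360 in the part after it. The orientation of a chromosome in the build is arbitrary, so its last part has no meaning of its own. Genes and repeats at these positions were not analysed here.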

How the data were processed

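Per the labels' protocols, fruit skin DNA was extracted with CTAB and made into bisulfite libraries (Accel-NGS Methyl-Seq). The submitters' processing notes name FastQC and Bismark 0.16.3. How regions were called and with which limits, the bisulfite conversion and the build of the genome were not given in the sources used here. Per the file headers, the authors deposited a mean methylation level per group and region as a fraction from 0 to 1, with replicates combined, printed here as a percentage. The deposited difference and area statistic are scores of the authors' comparison, and the former equals bagged minus unbagged (within 1e-09). The mean columns were matched to groups by the start of the sample titles. Positions are those of the deposited table, with both ends included.

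Gaps are differences between nearest ends, computed with Python 3.11.15, numpy 2.4.6 and pandas 2.3.3, and checked on simulated regions. Shares have 95% exact (Clopper-Pearson) binomial intervals from SciPy 1.17.1, which cover counting error only. Any difference below 0 and any number of cytosines were accepted. No test across samples was possible with 1 mean per group. Regions named are the largest losses with at least 10 cytosines, those of each chromosome, the lowest bagged levels, the most cytosines, the longest, the smallest differences, the closest neighbours and the runs. Other named examples (the pair on chromosome 9, the 8 nearly full losses) were chosen with their values in view. Members and lists were set with earlier results of these data known. Alternatives varied the distance to other contexts, cytosines, size, area statistic, scaffolds, chromosomes and distance limits.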

Additional observations from a re-analysis of the deposited data

How the results depend on the processing

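Of 154 alternative values for 6 results, 137 stayed within their limits, including all 102 with a chromosome left out. The limits were a factor of 1.5 for a number and the 95% exact interval for a share or a median. A reversed sign was looked for only in the median difference, whose sign the rule fixes, so none could occur. Numbers with a chromosome left out could not pass their limit. The number of losses was 318 with at least 10 cytosines, 198 at 30 points and 356 for the larger area statistic, and the median difference was -23.8, -27.1 and -34.6 points with at least 10 cytosines, 20 points and 30 points. The lower numbers, and the medians at 20 and 30 points, follow from the stricter limits. The limit on cytosines does not itself set the size of a loss. The share with a CHH region within 2 kb was 21.9% where no region of another context lay within 1 kb, 30.7% at a limit of 1 kb and 70.6% at 5 kb. Each of these settings changes which distances are counted, so the share moves with it by construction. Of the CG regions within 2 kb, 37.5% were higher (3 of 8) with that same exclusion to 1 kb, against a background of 38.4%. That exclusion leaves only CG regions beyond 1 kb of the losses kept. The share with another loss within 50 kb was 15.8% with that exclusion, 10.7% with at least 10 cytosines, 17.0% at 20 points, 7.07% at 30 points, and 11.2% for the larger area statistic, where fewer regions were counted. Over all 711 losses it was 14.6% at a limit of 20 kb and 32.5% at 100 kb. No paired analysis was possible because the deposited means combine the replicates, for which reason no replicate could be left out either. Read depth is unknown and limits what can be said of any single region.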

Other observations

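Unplaced scaffolds, which the rule leaves out, held 26 further CHG losses free of CG and CHH regions, on 19 scaffolds. Their median level was 65.2% in unbagged and 40.5% in bagged skin, a median difference of -24.6 points, close to the -24.4 points of the 711 regions on chromosomes. The scaffolds held 58 such gains, so that gains outnumbered losses there, while on chromosomes there were 629 gains against 711 losses. No test of this difference was made.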
